A study of Mus musculus with 21 samples.

Results

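The mitosis genes described here are 44 genes whose products carry a cell from the entry into mitosis to the separation of the daughter cells. They were chosen by symbol in a table of 18762 genes, all 44 were found, and all 44 passed the filter on low values (at least 1 FPKM in at least 3 libraries), with a level above 0 in every library. By role they fell into 4 stages. Entry held 12 genes, the spindle 7, the kinetochore and its checkpoint, passenger complex and anaphase trigger 19, and cytokinesis 6. Levels are FPKM, fragment counts scaled to transcript length and to the library's mapped fragments, and differences are on the scale of log2(FPKM + 1).

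Cyclins A and B activate the kinase Cdk1, which together with polo-like and Aurora kinases drives chromosome condensation and spindle assembly. The checkpoint at the kinetochores holds back the anaphase-promoting complex until each chromosome is attached, and its release lets the chromatids part and the cell divide. The messages of most of these genes rise late in each cycle and are low in cells that have left it, and heart muscle cells of mice leave the cycle in the days after birth, when the heart can still regrow a resected apex.

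RNA came from the heart apex of ICR mice at postnatal day 7, and every group, the controls included, had undergone apical resection at day 1. Drugs were given under the skin on 7 consecutive days, in 6 groups. Isoproterenol activates β-adrenergic receptors, and metoprolol and propranolol block them. Amiodarone acts on several ion channels, lidocaine on sodium channels and ivabradine on the pacemaker channel. The controls carry the resection label alone and are titled NS, an abbreviation that the labels do not spell out, so what they were injected with is not known here, and the doses are not given. Each of the 7 groups had 3 libraries. The labels do not tie them to separate animals, and the p-values therefore rest on differences among libraries, which may be technical.

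The absolute depth is unknown, since the values are FPKM. Library totals lay between 496304 and 552905 FPKM. Of 4534 low genes examined, 17 had values within 8% of multiples of a step shared by all libraries, as whole reads would give. Genes were kept only where that shared step fitted, so the relative depths read from them (0.955 to 1.03) were bounded in advance. They cannot show whether the depth was even. Markers of ventricular muscle were abundant in every group, with sums of 10 markers between 45009 and 52886 FPKM. Single libraries stood out in markers of neighbouring tissues: isoproterenol 3 held 176 FPKM of the atrial gene Myl7 (at most 3.26 FPKM elsewhere), and amiodarone 2 held 222 FPKM of the lung gene Sftpc (at most 9.1 FPKM elsewhere). Control 3 was highest in the skeletal muscle gene Mylpf (62.7 FPKM, at most 30.4 FPKM elsewhere) and propranolol 1 in the liver gene Alb (10.8 FPKM, at most 0.97 FPKM elsewhere). In whole tissue, fewer dividing cells and less of a message per cell cannot be told apart.

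Mitosis genes were lowest with isoproterenol. The mean of the 44 genes was 3.55, 3.69 and 3.60 in the controls and 2.84, 2.92 and 2.46 with isoproterenol, on the log2(FPKM + 1) scale. It was 3.36, 3.07 and 3.36 with amiodarone, and between 3.21 and 3.56 in the libraries of the other 4 drugs. No isoproterenol library reached any other library, and the lowest of each group was isoproterenol 3 and amiodarone 2, the libraries with the atrial and lung markers. Isoproterenol 3 was the lowest of its group in 43 of 44 genes and amiodarone 2 in 41. Summed over the genes, the level was 666.8 to 746.8 FPKM in controls and 332.7 to 429 FPKM with isoproterenol.

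Against control, 42 of 44 mitosis genes were called lower with isoproterenol and 0 higher, where a gene was called at a Benjamini-Hochberg adjusted p under 0.05 in limma. Of all 12433 tested genes, 25.8% were called lower and 8.38% higher. The median difference of the mitosis genes was -0.87, beside -0.09 for all tested genes, and 14 of the 44 were lower by at least 1 log2, beside 1.16% of all tested genes. All isoproterenol libraries lay below all controls in 42 genes (32.8% of all tested genes), and below all 18 other libraries in 30 (3.93% of all tested genes). In limma's F test over the 7 groups 41 of 44 differed, beside 39.9% of all tested genes. The others were Ttk, Cenpa and Pttg1 (adjusted p = 0.055, 0.088 and 0.056). Without isoproterenol 3 the count of genes called lower with isoproterenol was 41.

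**Figure D1:**
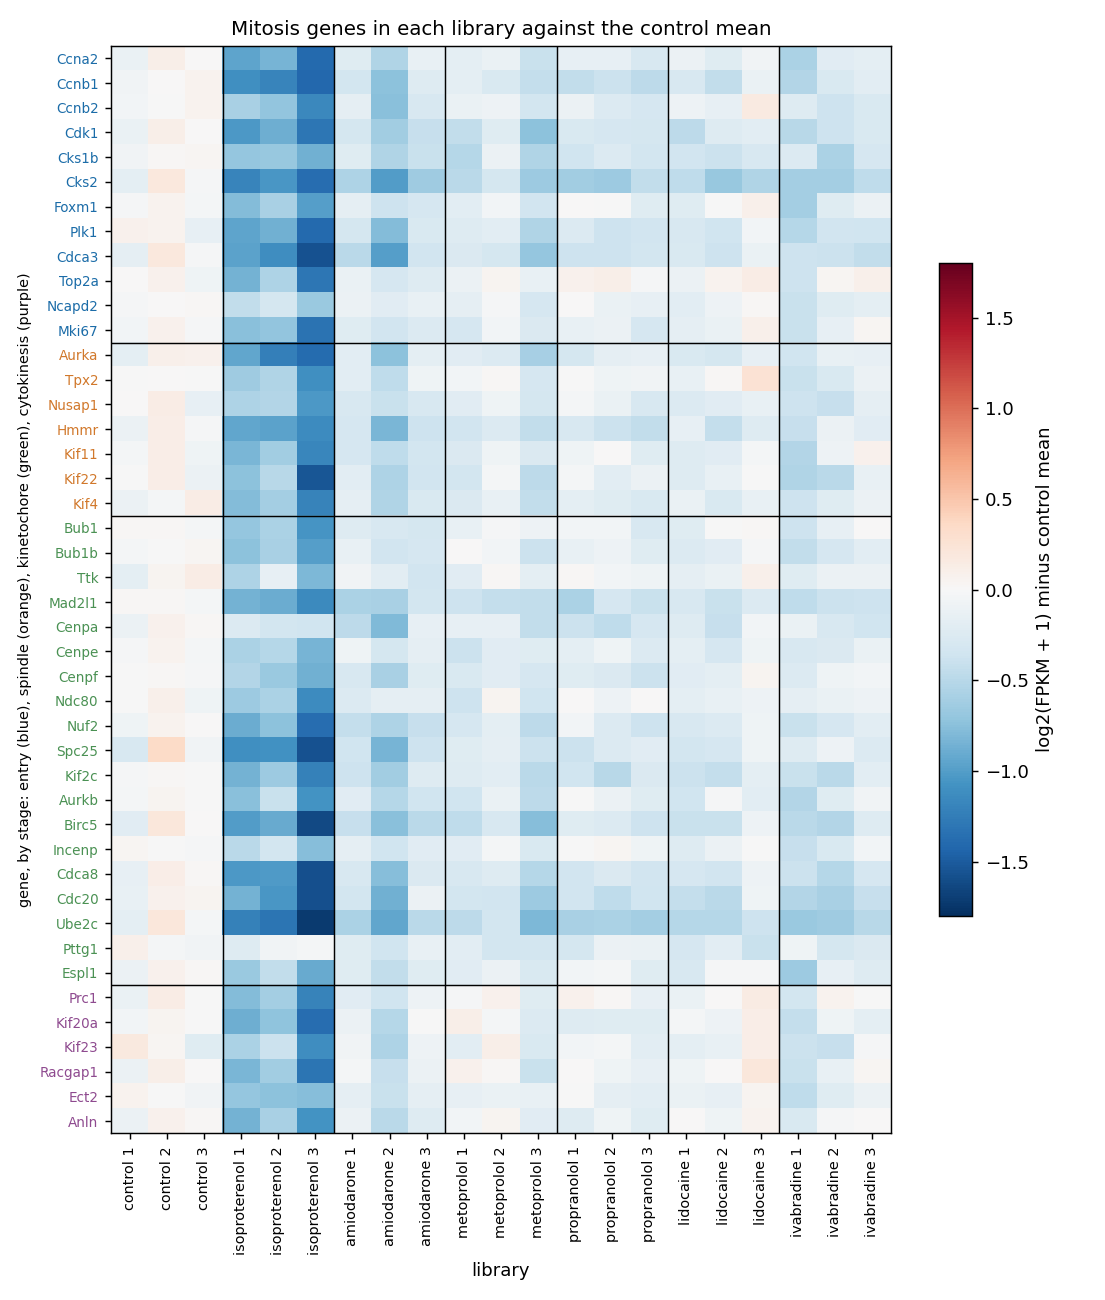
Level of the 44 mitosis genes (vertical axis, coloured by stage) in each of the 21 libraries (horizontal axis), as log2(FPKM + 1) minus the mean of the 3 controls. The isoproterenol columns are the darkest blue, isoproterenol 3 most of all, and Pttg1 and Cenpa stay pale in them.

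Many mitosis genes share 2 promoter elements, the CCAAT box bound by NF-Y and the cell cycle genes homology region (CHR, here TTTGAA or its variant TTCGAA). Repression of these genes in cells at rest runs through the CHR. RefSeq promoter windows of GRCm38.p6, from 250 bases before to 50 after the start of transcription, were matched for 38 of the 44 genes with 40 windows. Aurkb, Ccna2, Foxm1, Incenp, Kif20a and Tpx2 were not matched. Matches were counted on either strand and could overlap each other. CCAAT was in 80% of the mitosis gene windows and in 37.4% of all 32851 windows. TTTGAA was in 77.5% against 17.9%, TTCGAA in 7.5% against 1.56%, and both a CCAAT and a CHR in 72.5% against 7.52%. Within 50 bases of the start, a CHR was in 72.5% of the mitosis gene windows and 5.31% of all windows.

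The windows of the 3 genes with the largest difference and of the 2 genes not called with isoproterenol are shown for 120 bases before to 30 after the start, so that the genes at both ends of the response can be set side by side. Capitals mark the CCAAT box and the CHR on either strand. A box on the other strand reads ATTGG, and a CHR there reads TTCAAA. The regions, in GRCm38, are chr2:164769809-164769958 (plus strand) for Ube2c, chr2:69206184-69206333 (minus) for Spc25, chr13:100786457-100786606 (minus) for Ccnb1, chr5:30666766-30666915 (plus) for Cenpa and chr11:43425952-43426101 (minus) for Pttg1, each read 5′ to 3′ along its gene.
Ube2c: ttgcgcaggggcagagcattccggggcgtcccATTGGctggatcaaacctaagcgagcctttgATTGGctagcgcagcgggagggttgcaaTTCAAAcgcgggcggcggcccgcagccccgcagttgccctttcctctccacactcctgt
Spc25: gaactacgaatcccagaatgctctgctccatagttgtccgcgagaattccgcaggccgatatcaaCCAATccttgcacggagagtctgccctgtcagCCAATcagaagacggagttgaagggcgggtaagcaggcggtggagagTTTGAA
Ccnb1: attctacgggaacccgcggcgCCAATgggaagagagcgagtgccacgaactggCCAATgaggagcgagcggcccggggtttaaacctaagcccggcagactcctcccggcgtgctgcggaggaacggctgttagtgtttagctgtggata
Cenpa: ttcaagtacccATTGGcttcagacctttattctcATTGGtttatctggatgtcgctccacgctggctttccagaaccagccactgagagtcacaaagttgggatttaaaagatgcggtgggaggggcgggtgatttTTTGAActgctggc
Pttg1: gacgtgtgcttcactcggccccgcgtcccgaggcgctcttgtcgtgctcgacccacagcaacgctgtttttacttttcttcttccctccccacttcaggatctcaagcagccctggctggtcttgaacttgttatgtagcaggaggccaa
Ube2c, Spc25 and Cenpa each showed 2 CCAAT boxes and a CHR, Ccnb1 showed 2 CCAAT boxes and no CHR, and Pttg1 showed neither. Birc5, Mad2l1, Nuf2 and Nusap1, which were called lower, had neither motif in the whole window. Over the 38 genes, the isoproterenol difference ran from -1.42 to -0.31 in the 30 with a CHR (median -0.87) and from -1.24 to -0.11 in the 8 without one (median -0.98). The ranges overlapped nearly whole. A match is a run of letters and was not tested as a binding site.

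**Figure D2:**
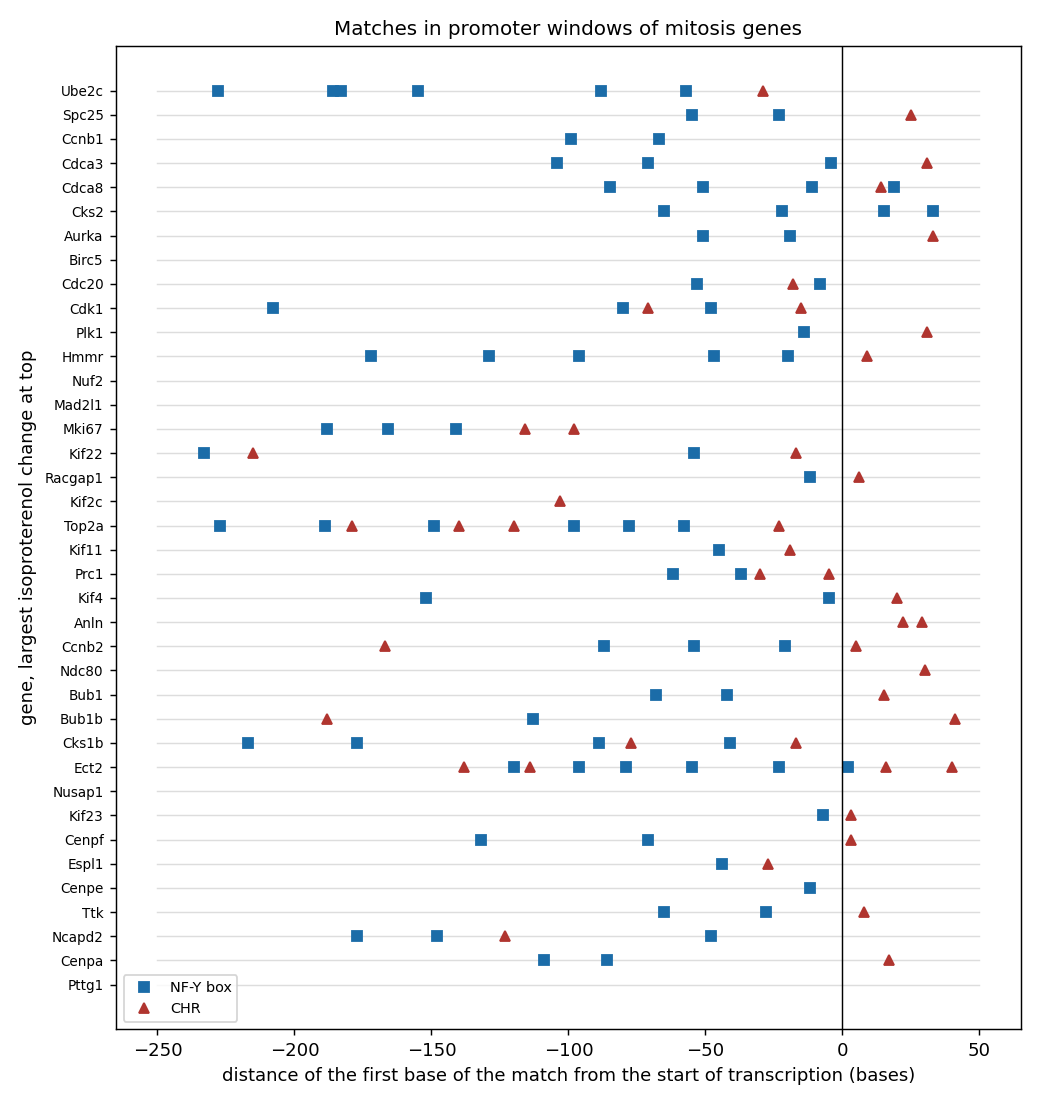
Position of CCAAT (NF-Y box, blue squares) and of TTTGAA or TTCGAA (CHR, red triangles) relative to the start of transcription, in bases, for 38 mitosis genes ordered by their isoproterenol difference; for genes with several windows all matches share a line. Matches lie mostly close to the start at both ends of the order, and Birc5, Nuf2, Mad2l1, Nusap1 and Pttg1 have none.

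All 12 entry genes were called lower with isoproterenol, with a median of -0.99. As a share of the control mean in FPKM, which adds no pseudocount, the median gene stood at 47.2% at entry, 47.5% in the spindle, 48.3% at the kinetochore and 51.1% in cytokinesis, so the stages lay close together. Ccnb1 encodes cyclin B1, the partner of Cdk1. It stood at 13.02, 13.7 and 14.3 FPKM in controls 1 to 3 and 5.82, 5.45 and 4.51 FPKM with isoproterenol. The other drugs' libraries lay between 7.76 and 12.5 FPKM, so the isoproterenol values overlapped no other group (log2 -1.24 ± 0.12 standard error, adjusted p = 5.8e-06). Cdk1 itself stood at 13.5, 15.9 and 14.9 FPKM in controls and 6.65, 7.55 and 5.38 FPKM with isoproterenol (log2 -1.07 ± 0.12, adjusted p = 1.9e-05), and Ccna2, cyclin A2, at 20.1, 23.4 and 22.01 against 10.9, 11.8 and 7.67 FPKM (log2 -1.06 ± 0.13, adjusted p = 3.4e-05). Both were below every library of the other drugs. Ccnb2, the second B cyclin, was at 19.2, 19.7 and 20.7 FPKM in controls and 12.9, 11.7 and 8.3 FPKM with isoproterenol (log2 -0.82 ± 0.14, adjusted p = 0.00037), where isoproterenol 1 and 2 lay above the 11.4 FPKM of amiodarone 2.

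The small Cdk-binding subunits Cks2 and Cks1b were lower too. Cks2 stood at 27.1, 34.9 and 30.3 FPKM in controls and 12.8, 14.3 and 11.3 FPKM with isoproterenol (log2 -1.20 ± 0.12, adjusted p = 5.8e-06), below the other drugs at 14.8 to 24.3 FPKM. Cks1b stood at 32.1, 34.1 and 34.3 FPKM in controls and 20.4, 20.6 and 18.01 FPKM with isoproterenol (log2 -0.74 ± 0.10, adjusted p = 7.5e-05). It differed least of the 6 cyclin and Cdk genes. Its retrocopy Cks1brt is listed apart at low values, and how reads shared by both were counted is not stated.

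Among regulators of entry, Cdca3, a part of the machinery that removes Wee1, stood at 20.3, 26.1 and 22.4 FPKM in controls and 11.2, 9.96 and 7.04 FPKM with isoproterenol (log2 -1.22 ± 0.16, adjusted p = 3.5e-05). The kinase Plk1 stood at 13.2, 13.1 and 11.2 FPKM in controls and 5.96, 6.4 and 4.11 FPKM with isoproterenol (log2 -1.07 ± 0.14, adjusted p = 4.7e-05), and Foxm1, a transcription factor of late cycle genes, at 8.56, 9.14 and 8.55 against 4.68, 5.5 and 3.89 FPKM (log2 -0.79 ± 0.12, adjusted p = 0.00018). None of these 3 overlapped the controls. Of the genes that shape the chromosomes, Top2a, the topoisomerase that untangles sister DNA, stood at 13.98, 14.8 and 13.2 FPKM in controls and 7.34, 9.15 and 5.07 FPKM with isoproterenol (log2 -0.90 ± 0.14, adjusted p = 0.00016). Mki67, which coats mitotic chromosomes and is the marker Ki-67, stood at 8.25, 9.15 and 8.46 against 4.71, 4.9 and 2.81 FPKM (log2 -0.93 ± 0.14, adjusted p = 9.7e-05). Both were lower with isoproterenol than in every other library. Ncapd2, a condensin subunit, differed least of the entry genes, at 23.5, 24.03 and 24.1 FPKM in controls and 17.4, 19.04 and 14.6 FPKM with isoproterenol (log2 -0.47 ± 0.09, adjusted p = 0.00061), and still did not overlap the controls.

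All 7 spindle genes were called lower with isoproterenol (median -0.87). Aurka, the Aurora kinase of the spindle poles, stood at 9.28, 11.4 and 11.2 FPKM in controls, 5.06, 3.93 and 3.44 FPKM with isoproterenol and between 5.94 and 9.54 FPKM in the other drugs' libraries (log2 -1.18 ± 0.14, adjusted p = 2.5e-05). Its activator Tpx2 stood at 10.9, 11.1 and 10.9 FPKM in controls and 6.64, 7.25 and 4.54 FPKM with isoproterenol (log2 -0.76 ± 0.13, adjusted p = 0.00043), and Hmmr, a spindle assembly factor, at 7.15, 8.55 and 7.68 against 3.6, 3.5 and 3.0 FPKM (log2 -1.01 ± 0.12, adjusted p = 2.3e-05). For these 3 genes the isoproterenol libraries lay below all others. Kif11, the motor that pushes the poles apart, stood at 5.51, 6.2 and 5.29 FPKM in controls and 2.77, 3.3 and 1.96 FPKM with isoproterenol (log2 -0.87 ± 0.13, adjusted p = 0.00015). The chromosome-arm motors Kif22 and Kif4 (log2 -0.93 ± 0.19, adjusted p = 0.0012 for Kif22 and log2 -0.86 ± 0.13, adjusted p = 0.00011 for Kif4) were lower as well, Kif22 reaching 3.15 FPKM in isoproterenol 3. Nusap1, a microtubule bundler, was called lower as well (log2 -0.71 ± 0.11, adjusted p = 0.00024), at 6.06, 6.68 and 5.34 FPKM in controls and 3.76, 3.85 and 2.43 FPKM with isoproterenol.

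Of the 19 kinetochore genes, 17 were called lower with isoproterenol (median -0.77). In the checkpoint, Mad2l1, which encodes the inhibitor Mad2, stood at 15.8, 15.8 and 15.1 FPKM in controls and 8.19, 7.92 and 6.47 FPKM with isoproterenol, and its p was the smallest of the 44 (log2 -0.96 ± 0.08, adjusted p = 2.5e-06). The checkpoint kinase Bub1 stood at 2.52, 2.53 and 2.4 FPKM in controls and 1.16, 1.34 and 0.67 FPKM with isoproterenol (log2 -0.77 ± 0.12, adjusted p = 0.00012), and Bub1b, BubR1, at 8.9, 9.1 and 9.35 against 5.08, 5.75 and 4.1 FPKM (log2 -0.77 ± 0.11, adjusted p = 7e-05). Neither overlapped any other group. Ttk, the kinase Mps1, was called lower (log2 -0.50 ± 0.13, adjusted p = 0.0075), yet isoproterenol 2 at 1.62 FPKM lay above control 1 at 1.56 FPKM.

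At the kinetochore proper, Spc25 of the Ndc80 complex stood at 10.2, 16.3 and 12.1 FPKM in controls and 5.34, 5.4 and 3.6 FPKM with isoproterenol (log2 -1.26 ± 0.15, adjusted p = 2.5e-05). Its partners Ndc80 and Nuf2 stood at 4.3, 4.7 and 4.07 FPKM and 8.86, 9.81 and 9.43 FPKM in controls, and 2.4, 2.59 and 1.45 FPKM and 4.57, 5.19 and 2.99 FPKM with isoproterenol. The 3 subunits were below every other library with isoproterenol (log2 -0.79 ± 0.12, adjusted p = 0.00011 for Ndc80 and log2 -1.01 ± 0.13, adjusted p = 3.2e-05 for Nuf2). The motor Cenpe, the fibrous corona protein Cenpf and the microtubule depolymerase Kif2c were called lower too, with log2 differences of -0.64, -0.69 and -0.91, at 1.7 to 4.82 FPKM in controls.

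The chromosomal passenger complex, which corrects faulty attachments, was called lower in its 4 genes. The log2 difference was -1.21 for Cdca8 (borealin), -1.18 for Birc5 (survivin), -0.74 for Aurkb and -0.53 for the scaffold Incenp. Its kinase Aurkb stood at 9.63, 10.3 and 9.86 FPKM in controls and 5.47, 7.25 and 4.21 FPKM with isoproterenol (log2 -0.74 ± 0.14, adjusted p = 0.00086). The isoproterenol libraries lay below all controls for these 4 genes.

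The anaphase trigger held both the largest and the smallest difference of the 44. Ube2c, the ubiquitin-conjugating enzyme of the anaphase-promoting complex, stood at 55.97, 73.01 and 61.6 FPKM in controls, 26.5, 24.9 and 18.5 FPKM with isoproterenol and between 32.7 and 50.2 FPKM with the other drugs (log2 -1.42 ± 0.14, adjusted p = 5.8e-06). Its mean with isoproterenol was 36.7% of the control mean. Cdc20, the activator of the complex, stood at 21.6, 25.01 and 24.6 FPKM in controls and 12.6, 10.96 and 7.23 FPKM with isoproterenol (log2 -1.16 ± 0.17, adjusted p = 0.00012). The protease separase, Espl1, was also lower (log2 -0.67 ± 0.13, adjusted p = 0.00091), while Pttg1, securin, which holds separase in check, was not.

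Pttg1 stood at 81.6, 74.5 and 73.4 FPKM in controls and 64.6, 72.7 and 74.6 FPKM with isoproterenol, and the groups overlapped (log2 -0.11 ± 0.08, adjusted p = 0.29, 95% interval -0.29 to 0.06). Cenpa, the histone that marks centromeres, stood at 58.3, 66.3 and 63.4 FPKM in controls and 52.5, 49.5 and 48.7 FPKM with isoproterenol. The libraries did not overlap, and the difference missed the threshold (log2 -0.31 ± 0.13, adjusted p = 0.061). Together with Ube2c these had the highest FPKM of the 44 genes in controls. Pttg1, Ube2c and Cenpa made up 10.9%, 9.04% and 8.91% of the summed level in controls, and 18.1%, 5.98% and 12.9% with isoproterenol. Pttg1 was higher by 0.003 after median-of-ratios rescaling and by 0.11 after a correction for length and GC, neither of them called. Cenpa was called when only these 2 groups were fitted (adjusted p = 0.013) and without amiodarone 2 or 3 (adjusted p = 0.027 and 0.026). With the other 5 drugs Pttg1 lay between 57.7 and 72.3 FPKM, below every control. Both genes were called lower with amiodarone (log2 -0.24 ± 0.08, adjusted p = 0.037, for Pttg1 and -0.47 ± 0.13, adjusted p = 0.011, for Cenpa).

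**Figure D3:**
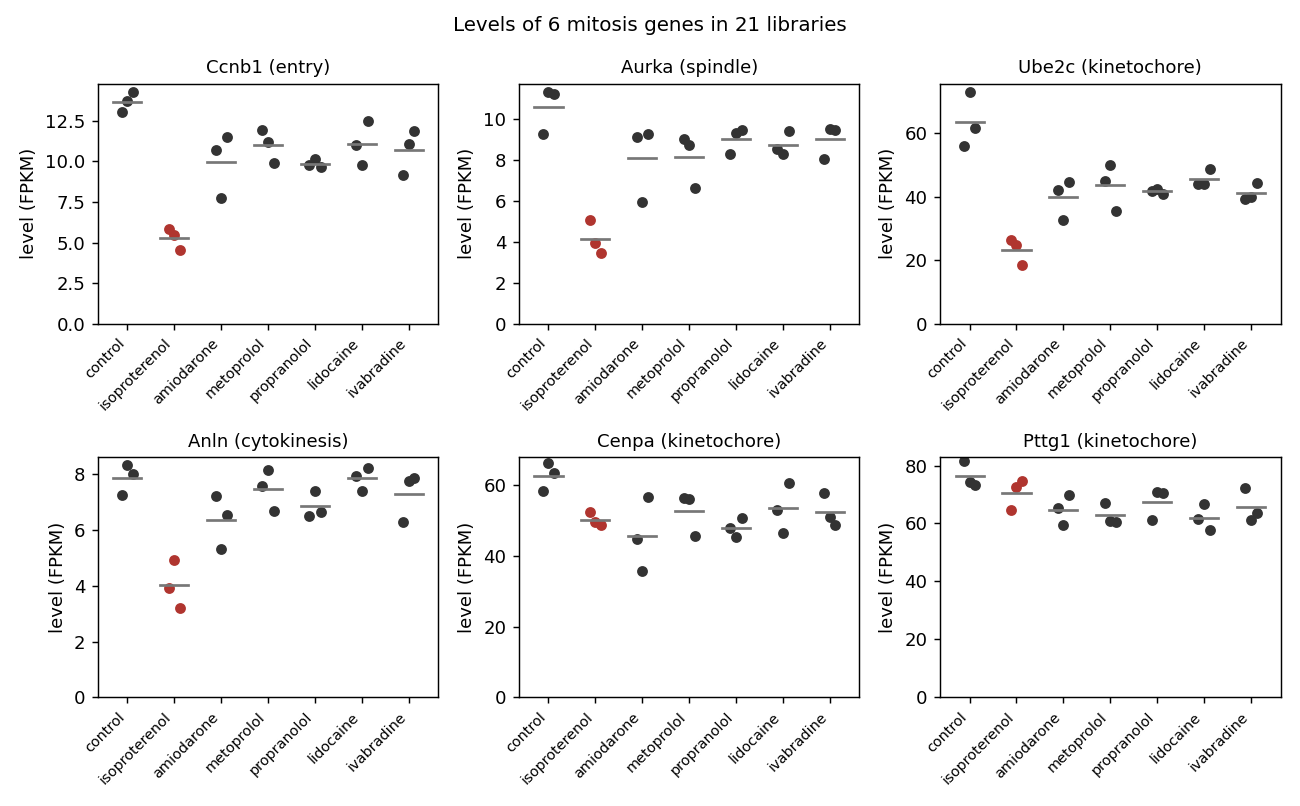
FPKM of 6 mitosis genes in each library (points) with the group mean (line), from 0. The red isoproterenol points lie below all others for Ccnb1, Aurka, Ube2c and Anln, and among the other groups for Cenpa and Pttg1.

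All 6 cytokinesis genes were called lower with isoproterenol (median -0.85, from -0.99 to -0.69). Kif20a, a motor of the central spindle, stood at 9.21, 9.85 and 9.49 FPKM in controls and 4.69, 5.34 and 3.08 FPKM with isoproterenol (log2 -0.99 ± 0.14, adjusted p = 8.9e-05). Racgap1 and Kif23, which together form centralspindlin, stood at 16.3, 19.1 and 17.8 FPKM and 7.11, 6.32 and 5.18 FPKM in controls and at 9.57, 11.1 and 6.5 FPKM and 3.82, 4.49 and 2.31 FPKM with isoproterenol (log2 -0.92 ± 0.16, adjusted p = 0.00036 for Racgap1 and log2 -0.69 ± 0.17, adjusted p = 0.0052 for Kif23). For Kif20a and Racgap1 no other library was as low, and for Kif23 amiodarone 2 (3.86 FPKM) and ivabradine 1 and 2 (4.48 and 4.38 FPKM) lay below isoproterenol 2. Anln, the ring scaffold anillin, stood at 7.24, 8.34 and 8.0 FPKM in controls and 3.91, 4.92 and 3.2 FPKM with isoproterenol (log2 -0.84 ± 0.12, adjusted p = 6.8e-05). The bundler Prc1 and the cytokinesis factor Ect2 were lower too (-0.87 and -0.74). In FPKM, Prc1 stood at 52.6% and Ect2 at 42.6% of the control mean, the log2(FPKM + 1) scale understating the change of the low gene. Ect2 stood at 2.46, 2.27 and 2.17 FPKM in controls and 1.04, 0.97 and 0.93 FPKM with isoproterenol.

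Set against each of the other drugs, isoproterenol was again lower. It was called lower in 34 of 44 genes against amiodarone (5.39% of all tested genes), 40 against metoprolol (5.17%), 42 against propranolol (8.15%), 42 against lidocaine (8.96%) and 36 against ivabradine (9.96%), with medians of -0.52, -0.65, -0.69, -0.74 and -0.64. These comparisons share the isoproterenol libraries. Ccnb1 had the smallest p of the 44 against 4 of the 5 drugs (log2 -0.80 ± 0.12, adjusted p = 0.0011 against amiodarone, log2 -0.94 ± 0.12, adjusted p = 0.00029 against metoprolol, log2 -0.95 ± 0.12, adjusted p = 6.4e-05 against lidocaine, log2 -0.90 ± 0.12, adjusted p = 0.00015 against ivabradine). Against propranolol, Top2a (log2 -0.96 ± 0.14, adjusted p = 0.00033) and Aurka (log2 -0.97 ± 0.14, adjusted p = 0.00033) had the smallest. Pttg1 was not called in any of the 5 comparisons, at 0.07 to 0.18 higher with isoproterenol, and neither was Cenpa, at -0.08 to 0.16.

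Against amiodarone, 8 further genes missed the threshold: Cenpf, Kif22, Ccnb2, Espl1, Incenp, Aurkb, Kif23 and Ttk, all of them lower with isoproterenol by 0.29 to 0.57 as fitted. Rescaling left 32 against amiodarone and 37 against metoprolol. Of all genes called, those higher with isoproterenol went from 35.3% to 48.6% against amiodarone, from 35.9% to 48.3% against metoprolol and from 42.1% to 53.3% against ivabradine. The count of mitosis genes against amiodarone was 16 without isoproterenol 3, 17 without amiodarone 1, 17 with only those groups fitted and 15 without the 4 libraries highest in markers of other tissues. Against metoprolol it was 26 without isoproterenol 3, 25 with only those groups fitted and 25 without the 4 libraries. Over the 31 settings tried, Ccnb1, Ccna2, Aurka, Mad2l1, Spc25, Cdca8, Ube2c, Kif20a and Ect2 remained called lower against amiodarone wherever they were tested.

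With each of the 5 anti-arrhythmic drugs fewer mitosis genes were called lower than with isoproterenol. Called lower against control were 20 of 44 with amiodarone (45.5% of the mitosis genes, 20.6% of all tested genes), 14 with ivabradine (31.8% and 19.1%), 10 with metoprolol (22.7% and 22%), 9 with propranolol (20.5% and 19.8%) and 6 with lidocaine (13.6% and 26.6%). With metoprolol and propranolol the share of mitosis genes called lower was thus near that of all genes, and with lidocaine it was smaller. None was called higher, where 8.47% of all tested genes were higher with amiodarone, 9.48% with metoprolol, 6.98% with propranolol, 10.6% with lidocaine and 7.91% with ivabradine. The medians were -0.34 for amiodarone, -0.27 for ivabradine, -0.25 for metoprolol, -0.19 for propranolol and -0.17 for lidocaine, beside -0.10 to -0.08 for all tested genes. The 6 comparisons with control share the control libraries.

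These counts depend on scale and on single libraries. After median-of-ratios rescaling they were 13 for amiodarone, 5 for metoprolol, 4 for propranolol, 2 for lidocaine and 3 for ivabradine, with 42 for isoproterenol, and 8.31% to 12.8% of all genes were lower. That rescaling moved the median of all genes for isoproterenol against control from -0.09 to 0.01. Of all genes called against control, 24.5% to 30.2% were higher before it and 59.1% to 64.4% after it. Without amiodarone 2 the amiodarone count was 5, and without control 2 it was 10. The metoprolol count was 6 without control 2, control 3 or metoprolol 1, 3 without metoprolol 3 and 16 without isoproterenol 3. The propranolol count was 4 without control 2 or 3 and 5 without propranolol 1 or 2. The lidocaine count was 3 without control 2. The ivabradine count was 4 without control 2 or ivabradine 2, 6 without control 3 and 5 without ivabradine 1.

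**Figure D4:**
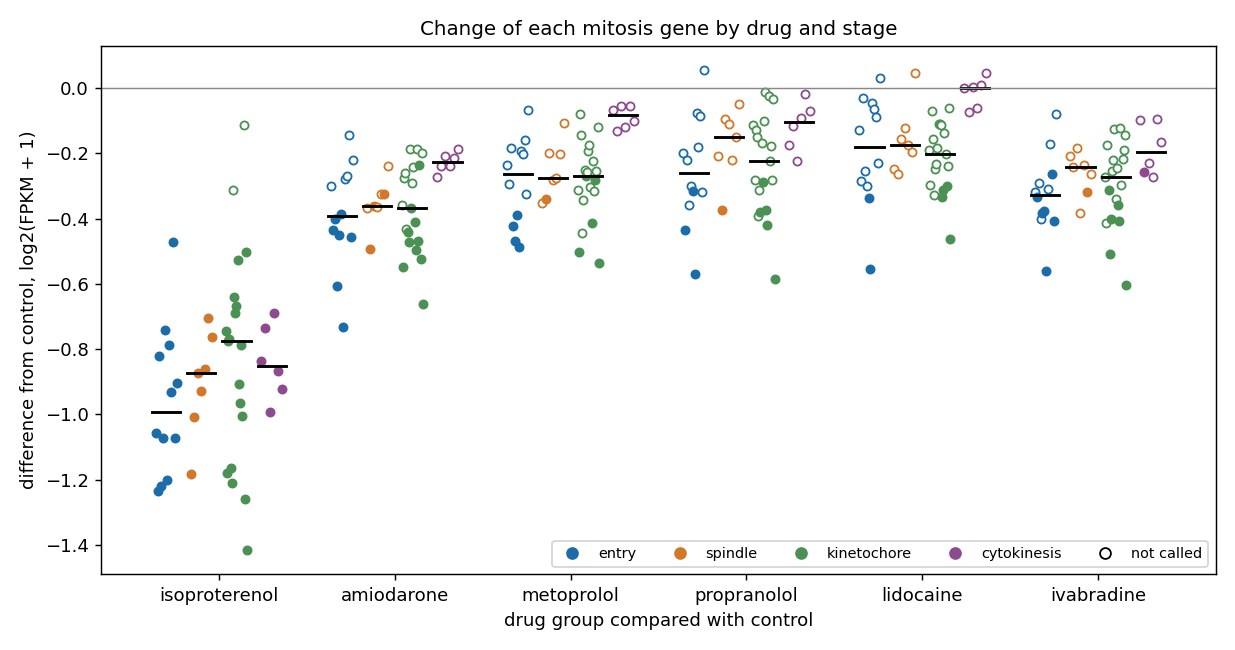
Difference from control on the log2(FPKM + 1) scale (vertical axis) for each mitosis gene, by drug and stage; filled points were called lower, open points were not, and bars are stage medians. The isoproterenol medians lie between -0.99 and -0.77, and those of the other drugs between -0.39 and 0.00.

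Cks1b, Cks2, Mad2l1 and Ube2c were called lower with all 6 drugs. How many of all tested genes were called lower with all 6 was not counted. Cks2, Cks1b and Ube2c have the shortest transcripts of the mitosis genes (692, 849 and 967 bases), while that of Mad2l1 has 1725 bases. Several of these calls were lost after a correction for transcript length and GC content, given below. Cks2 stood at 20.5, 14.8 and 19.2 FPKM with amiodarone, 21.7, 24.3 and 19.03 with metoprolol, 19.5, 19.2 and 22.4 with propranolol, 22.1, 18.8 and 20.8 with lidocaine and 19.7, 19.8 and 21.9 with ivabradine. Every one of these libraries lay below the lowest control, at 27.1 FPKM. For a single anti-arrhythmic drug, such separation held in 3211 (ivabradine) to 4143 (lidocaine) of all 12433 tested genes. The largest of its anti-arrhythmic differences was with amiodarone (log2 -0.73 ± 0.12, adjusted p = 0.00049) and the smallest with metoprolol (log2 -0.49 ± 0.12, adjusted p = 0.0056).

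Ube2c stood at 42.2, 32.7 and 44.8 FPKM with amiodarone, 45.1, 50.2 and 35.6 with metoprolol, 41.99, 42.4 and 40.95 with propranolol, 43.95, 44.0 and 48.7 with lidocaine and 39.4, 40.1 and 44.5 with ivabradine, again all below the lowest control at 56.0 FPKM. Its group means were 62.8% to 71.7% of the control mean. Mad2l1 lay between 10.01 and 12.95 FPKM in the 15 libraries, below the controls at 15.8, 15.8 and 15.1 FPKM, and its differences ran from -0.50 with amiodarone to -0.31 with lidocaine. Cks1b lay between 22.3 and 31.02 FPKM, also below all controls.

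After the correction for transcript length and GC content, Cks1b was called with none of the 5 anti-arrhythmic drugs, Cks2 with 3, Ube2c with 3 and Mad2l1 with 4. Under that correction 0 of the 44 genes were called with lidocaine. With isoproterenol 41 of 44 were called under it. Without that correction, Kif2c was called with 4 of the 5 drugs, Ccnb1, Cdk1, Hmmr and Pttg1 with 3, and 19 genes with none. Pttg1, not called with isoproterenol, was among the 3 genes of smallest p with lidocaine (log2 -0.30 ± 0.08, adjusted p = 0.0088), at 61.5, 66.9 and 57.7 FPKM, and was not called after rescaling (adjusted p = 0.12).

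By stage, the genes called lower with amiodarone were 7 of 12 at entry, 3 of 7 in the spindle, 10 of 19 at the kinetochore and 0 of 6 in cytokinesis. With ivabradine they were 6, 1, 6 and 1, with metoprolol 4, 1, 5 and 0, with propranolol 3, 1, 5 and 0, and with lidocaine 2, 0, 4 and 0. Of all tested genes, 20.6% were called lower with amiodarone, 19.1% with ivabradine, 22% with metoprolol, 19.8% with propranolol and 26.6% with lidocaine. Some of the stage counts lay near or below these shares, and those with lidocaine were all below. The cytokinesis medians were -0.23 with amiodarone, -0.09 with metoprolol, -0.11 with propranolol, 0.00 with lidocaine and -0.20 with ivabradine, each nearer to 0 than the entry median (-0.39, -0.26, -0.26, -0.18 and -0.33). The difference between stages was not tested. Anln, a cytokinesis gene, stood at 7.24, 8.34 and 8.0 FPKM in controls, 7.92, 7.39 and 8.23 FPKM with lidocaine and 7.58, 8.15 and 6.67 FPKM with metoprolol, ranges that overlap. Its values with propranolol (6.5, 7.41 and 6.64 FPKM) and ivabradine (6.29, 7.74 and 7.86 FPKM) overlapped the controls too. With amiodarone Anln lay below all controls, at 7.21, 5.33 and 6.55 FPKM, and was not called.

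**Figure D5:**
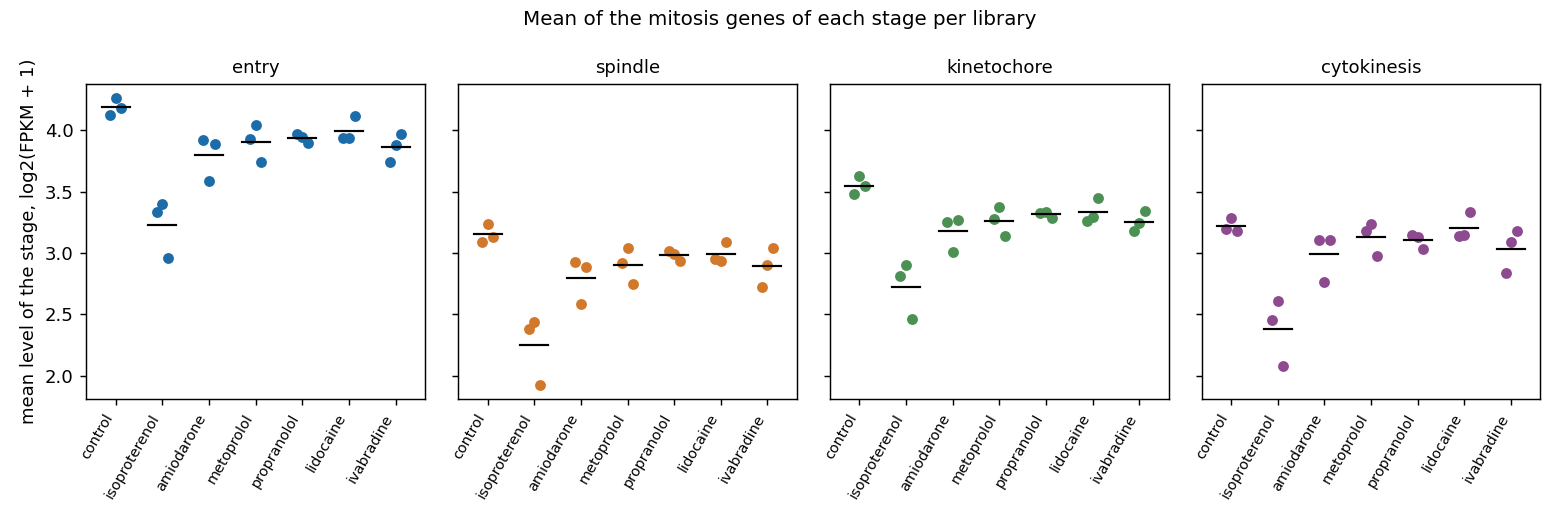
Mean log2(FPKM + 1) of the mitosis genes of each stage (panels) in each library (points), with the group mean (line). In each panel the 3 isoproterenol libraries are the lowest, and in the cytokinesis panel the lidocaine libraries (3.13 to 3.34) span the controls (3.18 to 3.28).

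Among the 5 anti-arrhythmic groups alone, 0 of 44 mitosis genes differed in limma's F test, beside 1.06% of all tested genes. Of the 44, 0 had an unadjusted p under 0.05 in that F test, beside 1544 of all 12433 tested genes. The smallest of the 44 was 0.091, for Cenpf. Metoprolol, selective for β1 receptors, and propranolol, which blocks β1 and β2 receptors alike, were compared directly, with unknown doses. Again 0 of 44 genes were called lower (0.0241% of all tested genes). Of the 44, 0 had an unadjusted p under 0.05, a count that was not made over all tested genes. Fitted differences of metoprolol minus propranolol ran from -0.22 to 0.17, and the 95% intervals of single genes from -0.56 to 0.47. Ndc80 had the smallest p, at 3.15, 4.52 and 3.19 FPKM with metoprolol and 4.38, 4.03 and 4.36 FPKM with propranolol (log2 -0.20 ± 0.12, adjusted p = 0.56), and the groups overlapped. The intervals do not show that the drugs act alike.

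Other genes of the cycle were counted beside the 44. Of 68 further mitotic genes tested, 64 were called lower with isoproterenol (median -0.66) and 0 higher, and Cenpl, Ncapd3, Cdc25b and Ckap5 were not called. The smallest p values were those of Spc24, the partner of Spc25 (log2 -1.07 ± 0.11, adjusted p = 1.1e-05), the condensin ATPase Smc4 (log2 -0.82 ± 0.09, adjusted p = 1.1e-05) and the centromere protein Cenpn (log2 -0.90 ± 0.10, adjusted p = 1.7e-05). With the other drugs 33 of 68 were called lower with amiodarone, 31 with ivabradine, 23 with metoprolol, 18 with propranolol and 15 with lidocaine, and 0 higher. These are 48.5%, 45.6%, 33.8%, 26.5% and 22.1%, beside 20.6%, 19.1%, 22%, 19.8% and 26.6% of all tested genes, so that the share with lidocaine was below that of all genes. Of 39 DNA replication genes, 38 were called lower with isoproterenol (median -0.55), and 9, 15, 18, 6 and 16 with amiodarone, ivabradine, metoprolol, propranolol and lidocaine (23.1%, 38.5%, 46.2%, 15.4% and 41%). With propranolol that share was below the 19.8% of all tested genes.

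Of 17 regulators of G1 and S phase, 10 were called lower with isoproterenol and 0 higher, led by the transcription factor E2f1 (log2 -0.81 ± 0.10, adjusted p = 2.5e-05), Cdk4 (log2 -0.44 ± 0.06, adjusted p = 3.3e-05), which starts the passage through G1, and Ccne1, cyclin E1 (log2 -0.81 ± 0.11, adjusted p = 6.4e-05). Called lower with the other drugs were 4 of 17 with amiodarone, 6 with metoprolol, 2 with propranolol, 6 with lidocaine and 9 with ivabradine (23.5%, 35.3%, 11.8%, 35.3% and 52.9%, beside 20.6%, 22%, 19.8%, 26.6% and 19.1% of all tested genes), and at most 1 was higher with any of them. The D cyclin Ccnd2 was not called with isoproterenol (log2 -0.01 ± 0.08, adjusted p = 0.94), and it was higher with amiodarone (log2 0.40 ± 0.08, adjusted p = 0.0014) and metoprolol (log2 0.26 ± 0.08, adjusted p = 0.015). Myc was higher with propranolol (log2 0.46 ± 0.15, adjusted p = 0.031), a call lost without control 1, control 3 or any 1 propranolol library (adjusted p = 0.053 to 0.084). The Ccnd2 call with metoprolol was lost without control 2 (adjusted p = 0.069).

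Of 20 genes listed as brakes on the cycle, 11 were called lower with isoproterenol and 2 higher (55% and 10%, beside 25.8% and 8.38% of all tested genes). The share higher was thus near that of all genes. Those lower were led by the Cdk inhibitors Cdkn1a, p21 (log2 -1.34 ± 0.10, adjusted p = 8.7e-07), and Cdkn2c, p18 (log2 -0.69 ± 0.09, adjusted p = 3.2e-05), and by the pocket protein Rbl1, p107 (log2 -0.48 ± 0.08, adjusted p = 0.00032). The rest of those lower were Cdkn1c, Cdkn2d, Pkmyt1, E2f4, E2f5, Lin9, Lin37 and Lin54, so the list is not one of Cdk inhibitors alone. Wee1, the kinase that holds Cdk1 inactive, was higher (log2 0.41 ± 0.10, adjusted p = 0.0038), as was Rbl2, p130, a part of the complex that represses mitosis genes at rest (log2 0.24 ± 0.09, adjusted p = 0.041). The Rbl2 call was lost in several refits, among them those without any 1 control (adjusted p = 0.06 to 0.13). With the other drugs, too, more brakes were called lower than higher, as were more of all tested genes. Of the 20, 8 were lower and 2 higher with amiodarone, 8 and 1 with metoprolol, 9 and 0 with propranolol, 6 and 2 with lidocaine, and 10 and 1 with ivabradine. In the same order, 40%, 40%, 45%, 30% and 50% were lower, beside 20.6%, 22%, 19.8%, 26.6% and 19.1% of all tested genes. The shares higher were 10%, 5%, 0%, 10% and 5%, beside 8.47%, 9.48%, 6.98%, 10.6% and 7.91%. With lidocaine both shares were thus near those of all genes. The brakes called higher were Wee1 and Btg2. Wee1 was higher with amiodarone (log2 0.38 ± 0.10, adjusted p = 0.0087), lidocaine (log2 0.44 ± 0.10, adjusted p = 0.0024) and ivabradine (log2 0.43 ± 0.10, adjusted p = 0.004). The Wee1 call with amiodarone was lost without amiodarone 2 (adjusted p = 0.054). The antiproliferative gene Btg2 was higher with amiodarone (log2 0.92 ± 0.16, adjusted p = 0.00096), metoprolol (log2 1.01 ± 0.16, adjusted p = 0.00046) and lidocaine (log2 0.74 ± 0.16, adjusted p = 0.0023).

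Markers of macrophages and neutrophils were also lower with isoproterenol. The sum of 11 macrophage markers was 298 to 696 FPKM in controls, 114 to 229 FPKM with isoproterenol and, among the other drugs, 170 to 479 FPKM. Of the 11, 10 were called lower with isoproterenol, beside 25.8% of all tested genes. No macrophage marker was at 0 in all libraries. With the other drugs 4 (amiodarone) to 8 (propranolol) of the 11 were called lower, beside 20.6% and 19.8% of all tested genes. The sum of 10 neutrophil markers was 22.3 to 135 FPKM in controls and 8.36 to 11.1 FPKM with isoproterenol, with 5 of the 7 tested called lower. With amiodarone the neutrophil sum was 68.7 to 79.2 FPKM, and 3 of 7 were called higher, beside 8.47% of all tested genes. Sums for ventricular muscle (46728 to 49414 FPKM in controls, 46210 to 49679 FPKM with isoproterenol) and red blood cells (5894 to 9068 and 5199 to 8777 FPKM) overlapped between these groups. Lymphocyte markers were scarce, with overlapping sums of 4.1 to 7.94 FPKM in controls and 2.79 to 4.2 FPKM with isoproterenol, and 0 of the 2 tested were called. Smooth muscle and pericyte markers summed to 579 to 631 FPKM in controls and 486 to 558 FPKM with isoproterenol, which did not overlap. The largest of these markers, Acta2, had a mean of 284 FPKM in controls and 173 FPKM with isoproterenol. Others went the opposite way, such as Abcc9 (39.8 and 56.2 FPKM), so the sum does not describe the list as a whole. Of these 10, 3 were called higher and 1 lower, beside 8.38% and 25.8% of all tested genes. The sums of endothelial, epicardial and fibroblast markers overlapped. The fibroblast sum spread widely among the controls (1779 to 3350 FPKM), so its overlap does not show an unchanged level. With isoproterenol 3 of 10 endothelial, 4 of 10 fibroblast and 1 of 9 tested epicardial markers were called lower and 0 higher. Of the 10 fibroblast markers, 9 had a fitted difference below 0 (median of the list -0.33), and Pdgfra went the other way. The part of these cells in the mitosis gene differences was not tested.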

How the data were processed

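Bulk RNA sequencing of the heart apex on the BGISEQ-500 gave 21 libraries. The authors deposited 1 table of FPKM per gene and library, made with HISAT and Bowtie2 2.2.5 against mm9, per the submitters' processing notes. Per the labels' protocols, messenger RNA was enriched with oligo(dT) or ribosomal RNA was depleted, without saying which. How reads shared by near-identical genes were counted is not given in the sources used here.

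A gene was tested where 3 or more libraries reached 1 FPKM (12433 of 18762). limma 3.58.1 in R 4.3.3 was fitted to log2(FPKM + 1) with 1 mean per group, all 21 libraries, 14 residual degrees of freedom and a variance trend. Fold changes on this scale understate those of low genes. P-values are two-sided and were adjusted by Benjamini-Hochberg over all tested genes within each comparison, with a threshold of 0.05, and ± is the standard error. The procedure was run on simulated data with independent noise and with shifts of chosen genes in the isoproterenol group alone. Those data lacked shifts shared by the genes of a library, so they do not bear on the dependence on single libraries. FPKM without counts give no depth or counting interval.

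The mitosis genes, the lists and the tests were chosen with earlier results of these data known. Library values are given for the 2 genes of largest and the 1 of smallest change per stage and for a list of central genes, and some others were added after their values were seen. In each other comparison the genes of smallest and largest p were taken, the latter only for isoproterenol against a drug. In the other lists the 3 of smallest p and any called the opposite way were taken. Naming the genes called with all 6 drugs, and those singled out for overlap or for missing the threshold, was decided after seeing their values.

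Alternatives were other pseudocounts and filters, median-of-ratios rescaling, a replicate block, other variance settings, fits of the compared groups alone, each library left out in turn, the 4 libraries highest in markers of other tissues left out, and a correction for transcript length and GC content. The last was chosen after seeing the data. Promoter sequences are RefSeq windows of GRCm38.p6, a different build from that of the table, and were matched by gene identifier.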

Additional observations from a re-analysis of the deposited data

How the results depend on the processing

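Of the 42 mitosis genes called lower with isoproterenol than in controls, 41 were called, over the 31 settings, wherever they were tested. Ttk was the exception. The count was 41 to 43 when 1 library was left out. With a filter of 5 FPKM it was 33 of 35 tested. The counts for the other drugs were less stable. Median-of-ratios rescaling gave 13 for amiodarone, 5 for metoprolol, 4 for propranolol, 2 for lidocaine and 3 for ivabradine. The length and GC correction gave 11, 4, 4, 0 and 5. Without a filter on low values propranolol had 5 and ivabradine 6. Fitted with the compared groups alone, metoprolol had 16, propranolol 16, isoproterenol against amiodarone 17 and isoproterenol against metoprolol 25. Without the 4 libraries highest in other-tissue markers, amiodarone had 5, isoproterenol against amiodarone 15 and isoproterenol against metoprolol 25. Leaving out 1 library gave 5 to 28 for amiodarone, 3 to 16 for metoprolol, 4 to 10 for propranolol, 3 to 8 for lidocaine and 4 to 21 for ivabradine. For isoproterenol it gave 16 to 38 against amiodarone and 26 to 41 against metoprolol. The cause was not tested.

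The sign of a difference that was not called turned in a few settings. Pttg1 with isoproterenol against control was 0.003 after rescaling and 0.11 after the length and GC correction, and against propranolol it was -0.043 without the 4 libraries and -0.003 to 0.127 without 1 library. Cenpa with isoproterenol against ivabradine was 0.035 after the length and GC correction and -0.107 to 0.014 without 1 library. For Cenpa, isoproterenol against amiodarone gave -0.002 to 0.325 without 1 library, and isoproterenol against lidocaine -0.172 to 0.015.

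With the replicate number as a block, the counts were 42 for isoproterenol, 18 for amiodarone, 8 for metoprolol, 7 for propranolol, 5 for lidocaine and 10 for ivabradine. Over 63 pairs of libraries with the same number, their deviations from the group means correlated at -0.54 to 0.29 (median -0.03), and 3 of 21 libraries correlated best with their own number, so the numbers were not treated as pairs. With FPKM alone, sampling error cannot be separated from the spread among the 3 libraries.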
